A study of Mus musculus with 8 samples.

Results

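Transcripts of 8 genes of nitric oxide and cyclic GMP signaling were followed across 8 libraries of mouse tumors. The genes were taken from a fixed list of symbols, found by their Ensembl identifiers among the 49671 genes of the count table, and all 8 had counts in every library. They are the nitric oxide synthases Nos1, Nos2 and Nos3, the Nos1 adaptor Nos1ap, the hydrolases Ddah1 and Ddah2, and the cyclic GMP-dependent kinases Prkg1 and Prkg2. They were selected on their levels and spread in these same libraries, so their levels are given as a description and without a test. All 8 tumors share 1 genotype, labelled HprtCre; Ewsr1-loxP; Atf1-loxP, in which Cre at the Hprt locus, a gene active in most cells, recombines loxP sites in Ewsr1 and Atf1. The tumors were snap frozen at morbidity and no drug had been given. The series holds no normal tissue and no other genotype among the samples analysed here. After their titles, the libraries are called 1, 2L, 2R, 3, 4a, 4b, 5 and 6 here. Whether libraries that share a number came from 1 animal, or from parts of 1 tumor, is not stated. The SD values therefore measure the spread between libraries only. Each library is also called a tumor here, by its title.

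Nitric oxide synthases make nitric oxide from arginine and need the cofactor tetrahydrobiopterin. The gas activates soluble guanylyl cyclase, which makes cyclic GMP, and the kinases encoded by Prkg1 and Prkg2 carry that signal onward until phosphodiesterases remove it. Nos1 is best known from neurons and skeletal muscle, Nos2 from activated macrophages and Nos3 from endothelium. Ddah1 breaks down asymmetric dimethylarginine, a natural inhibitor of all these synthases, and Ddah2 is its close relative. Nos1ap binds the Nos1 protein. Prkg1 encodes the kinase of smooth muscle, platelets and several neurons, and Prkg2 a membrane-bound kinase known from gut and growth cartilage.

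Levels are counts per 1000000 counts (CPM) after scaling of library size with TMM factors, and levels between genes are compared only as CPM per kilobase of exon. The shallowest library was 3, with 4817902 counts, and the deepest was 2L, with 19682149. Library 3 stood apart in composition: protein-coding genes outside the mitochondrial genome held 23.6% of its counts, against 57.4% to 93.9% in the other 7, and its TMM factor was 0.394, against 0.830 to 1.36. Its values therefore rest on the fewest counts and on the largest scaling. Some results that involve it are also given without it or as ratios inside a library, which no scaling can change. Levels and means of the pathway and marker genes are given with its TMM factor only. So is the share of all genes at least 4-fold higher in library 3. Ewsr1 and Atf1, the engineered genes, were present in every library, at 52.2 to 129 CPM and 21.4 to 34.0 CPM. Intervals are exact 95% Poisson intervals and cover counting error only.

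In mm10, Nos1 (ENSMUSG00000029361) lies at chr5:117781032-117958840 on the plus strand, Nos2 (ENSMUSG00000020826) at chr11:78920787-78960254 on the plus strand and Nos3 (ENSMUSG00000028978) at chr5:24364810-24384474 on the plus strand. Nos1ap (ENSMUSG00000038473) lies at chr1:170302668-170589861 on the minus strand, Ddah1 (ENSMUSG00000028194) at chr3:145758675-145894277 and Ddah2 (ENSMUSG00000007039) at chr17:35059035-35062095, both on the plus strand. Prkg1 (ENSMUSG00000052920) lies at chr19:30564489-31765033 and Prkg2 (ENSMUSG00000029334) at chr5:98929773-99037351, both on the minus strand.

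To show the sequence beside the main genes, the 250 bases before each annotated RefSeq start of Nos1 and Prkg1 follow (GRCm38.p6, the assembly of mm10). These genes were chosen because their levels ran close together in 7 libraries and far apart in the remaining one. Capitals mark TGACG or its reverse complement CGTCA, the core letters of the element that CREB and ATF factors bind.
Nos1, chr5:117866589-117866838, plus strand: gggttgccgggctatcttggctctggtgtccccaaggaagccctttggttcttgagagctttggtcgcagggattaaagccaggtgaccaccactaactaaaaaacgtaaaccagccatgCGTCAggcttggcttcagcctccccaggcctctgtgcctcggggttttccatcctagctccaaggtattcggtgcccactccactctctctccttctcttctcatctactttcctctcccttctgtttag
Prkg1, outer start, chr19:31765034-31765283, minus strand: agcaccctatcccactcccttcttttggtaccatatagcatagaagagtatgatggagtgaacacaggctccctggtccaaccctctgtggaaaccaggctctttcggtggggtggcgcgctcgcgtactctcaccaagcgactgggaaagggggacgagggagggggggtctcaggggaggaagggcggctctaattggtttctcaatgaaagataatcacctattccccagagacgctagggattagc
Prkg1, inner start, chr19:31664371-31664620, minus strand: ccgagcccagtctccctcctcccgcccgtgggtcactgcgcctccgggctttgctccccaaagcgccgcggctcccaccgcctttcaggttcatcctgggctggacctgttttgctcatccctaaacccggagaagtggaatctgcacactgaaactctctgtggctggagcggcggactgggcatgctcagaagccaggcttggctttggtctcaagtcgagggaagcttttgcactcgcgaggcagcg
The Nos1 window held 1 such core, with its first letter 130 bases before the start, and neither Prkg1 window held one. The Nos1 start lies inside the gene: in 4 of the 7 GENCODE Nos1 transcripts an internal exon begins at that base, and none starts there. The Nos1 window may therefore be intron rather than promoter sequence. Across all 32851 RefSeq windows of this length, 17.8% held the core on either strand and 1.55% held the full element TGACGTCA. Of the 8 genes, 5 had 7 windows between them, 1 window held the core and 0 held the full element. These matches describe letters and not binding.

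Nos1 had the widest spread of the 8 genes, with 1 tumor far above the rest. Its SD of log2 CPM was 2.08 over the 8 libraries and 1.16 without tumor 3, when Prkg1 spread most, at 1.40. It stood at 815 CPM in tumor 3 (95% Poisson interval 775 to 857), at 55.4 in 1, 52.3 in 2L, 49.7 in 5, 32.5 in 2R, 12.8 in 6, 10.8 in 4a and 8.99 in 4b. Its mean was 130 ± 278 CPM (SD, n = 8), and 31.8 ± 20.9 CPM without tumor 3 under the same TMM factors (SD, n = 7). With TMM factors computed anew without library 3, as for the SD of 1.16, the mean was 36.0 CPM. Tumor 3 lay clear of all others. Next came 1, 2L and 5, whose intervals overlapped in turn, then 2R, and then 6, 4a and 4b, which overlapped in turn as well. The high value is visible before any scaling, since library 3 held 1530 Nos1 counts, more than the 1335 counts of library 2L, although its total was the lowest. As CPM of the whole library, without a TMM factor, Nos1 stood at 318 in library 3 and at 10.6 to 67.8 elsewhere.

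Few of the genes that passed the low-count filter set tumor 3 apart as far as Nos1 did. That filter asked for 0.920 CPM before scaling in every library. Genes high in tumor 3 and below that level in another library were therefore not counted. On the log2 scale, Nos1 in library 3 exceeded the highest other library by 3.88, and 5 of the 11505 genes that passed the low-count filter, Nos1 included, did so by at least as much. The other 4, named after their values were seen, were Pvt1 (a long noncoding RNA, 7.74), Cep131 (a centrosome gene, 4.80), Spock2 (a matrix proteoglycan gene, 3.99) and Dpysl5 (a neuronal development gene, 3.98). Library 3 was at least 4-fold above the highest other library for 193 of these genes, or 1.68%. Of the 6 of the 8 genes that passed the filter, 1 did so. For Prkg1 the log2 level in library 3 minus that in the highest other library was -2.56, at percentile 8.11 among the genes kept. That difference depends on the 73.0 CPM of Prkg1 in 2L. Library 3 was not the lowest for Prkg1: it stood at 12.3 CPM there, against 9.97 in 4b, 9.51 in 6 and 6.71 in 4a.

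Markers of muscle and neurons are given beside Nos1, since both tissues are known to express it. The summed level of 10 skeletal muscle genes was 21613 CPM in 2L, 6822 CPM in 3 and between 15.6 and 125 CPM in the other 6, and all 10 were detected in every library. Ttn, the giant muscle protein gene, stood at 12172 CPM in 2L and 5145 CPM in 3. Nos1 was thus nearly level in 2L, 1 and 5 (52.3, 55.4 and 49.7 CPM) while the muscle sum was 21613, 65.1 and 65.6 CPM. The part of muscle tissue in the Nos1 level of tumor 3 was not tested. The summed level of 8 neuronal genes was lowest in 3, at 39.4 CPM, and highest in 1, at 175 CPM. Snap25, Syt1, Nefl, Nefm and Elavl4 had 0 counts in at least 1 library, so 3 of the 8 were detected throughout, and 4 of the 8 in tumor 3. Map2 and Tubb3, those of highest mean CPM among them, stood at 25.03 and 11.7 CPM in tumor 3. In bulk tumor RNA, more cells of a type and more RNA per cell cannot be told apart.

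**Figure D1:**
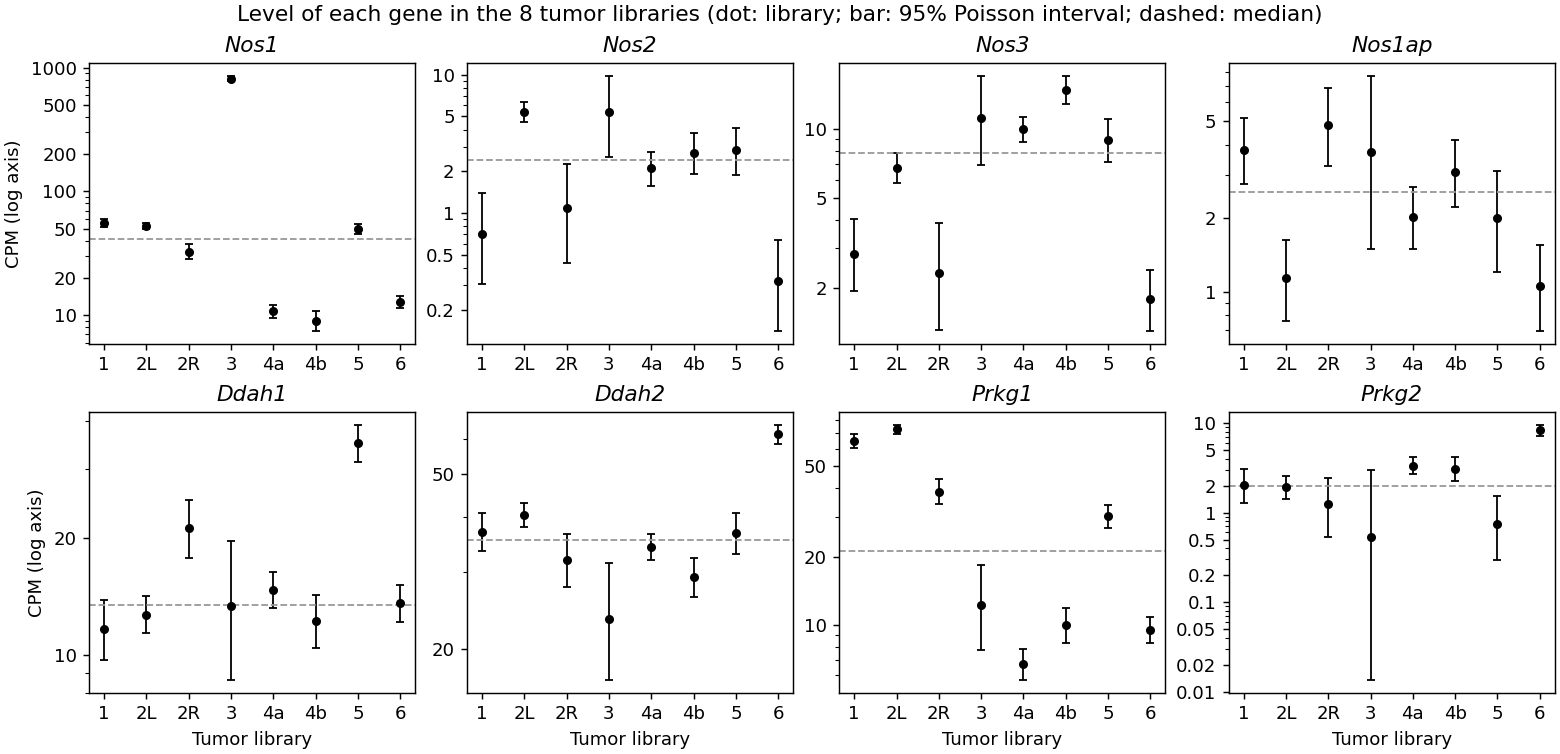
Level of each of the 8 genes (CPM, log axis) in the 8 tumor libraries, with 95% Poisson intervals as bars and the median over libraries as a dashed line. Nos1 reaches 815 CPM in tumor 3, with 8.99 to 55.4 CPM in the other 7, while Ddah2 lies between 23.4 and 61.5 CPM.

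Nos3, the endothelial synthase, spanned 2.96 on the log2 scale, with no tumor set far from the rest. It stood at 14.8 CPM in 4b, 11.2 in 3, 9.98 in 4a, 8.95 in 5, 6.74 in 2L, 2.84 in 1, 2.34 in 2R and 1.79 in 6. Among neighbours in that order, the intervals separated only 2L from 1, so 5 tumors lay above a gap and 3 below it. The sum of 10 endothelial markers ran from 401 CPM in 1 to 1722 CPM in 2R, and all 10 were detected in every library. Kdr alone took 1430 CPM of the sum in 2R. Without Kdr, a choice made after the values were seen, the other 9 markers summed to 793 CPM in 4b, 726 in 2L, 691 in 4a, 466 in 6, 405 in 5, 391 in 3, 291 in 2R and 185 in 1. For each 1000 CPM of those markers there were 28.6 CPM of Nos3 in tumor 3, 22.1 in 5, 18.7 in 4b, 15.3 in 1, 14.4 in 4a, 9.28 in 2L, 8.02 in 2R and 3.84 in 6. The lowest ratio rested on a single marker, since Egfl7, a secreted endothelial factor gene, held 365 CPM of that sum in 6 and 163 CPM in 2R. Without Kdr and Egfl7, also a choice made after the values were seen, the ratio was 33.3 in 3, 9.84 in 2L and between 17.4 and 24.9 in the other 6. Single markers did not run alike over the tumors: Vwf, a clotting factor gene, was lowest in 6 and 2R, at 31.1 and 32.2 CPM, where Egfl7 was highest. The part of vessel content in the Nos3 levels was not tested.

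Nos2, the inducible synthase, was scarce everywhere. It stood at 5.41 CPM in 2L (138 counts), 5.33 in 3 (10 counts), 2.84 in 5, 2.72 in 4b, 2.11 in 4a, 1.09 in 2R, 0.710 in 1 and 0.325 in 6 (8 counts). All neighbouring libraries in this order had overlapping intervals, but the ends did not: 4.54 to 6.39 CPM in 2L against 0.140 to 0.641 CPM in 6. Tumor 6 had the highest sum of 10 macrophage markers, at 4129 CPM, with Mrc1, the mannose receptor gene, at 1231 CPM and Lyz2, the lysozyme gene, at 887 CPM. The other 7 tumors ranged from 330 CPM in 3 to 1945 CPM in 2L, and all 10 markers were detected in each. Nos2 was lowest in 6, which had the highest macrophage sum. It was highest in 2L and nearly as high in 3, which had the second highest and the lowest sum. The part of macrophages in the Nos2 levels was not tested. Nos2 did not pass the low-count filter.

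Which synthase led differed between tumors, measured inside each library. Nos1 made up 94.9% of the summed synthase level per kilobase in tumor 3, 85.4% in 1, 78.2% in 2R, 69.4% in 6, 62.2% in 2L, 61.3% in 5, 25.02% in 4a and 16.1% in 4b. Nos3 made up 71.6% in 4b and 62.6% in 4a and led in those tumors, whereas its share elsewhere was 3.52% to 29.8%. The share of Nos2 reached 16.2% in 2L and was lowest in 3, at 1.57%. Nos2 stood below Nos3 in all 8 libraries, with a ratio per kilobase of 0.170 to 0.751. The summed synthase level was 77.0 CPM per kilobase in tumor 3, 7.55 in 2L, 7.27 in 5, 5.82 in 1, 5.01 in 4b, 3.86 in 4a, 3.73 in 2R and 1.65 in 6.

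Nos1ap, the adaptor, was among the rarest of the 8 genes and did not follow Nos1. It stood at 4.83 CPM in 2R, 3.82 in 1, 3.73 in 3, 3.10 in 4b, 2.03 in 4a, 2.001 in 5, 1.14 in 2L and 1.06 in 6. All neighbours in this order had overlapping intervals, and tumor 3 was not set apart (7 counts). The ratio of Nos1 to Nos1ap per kilobase reached 142 in tumor 3, beside 1.89 to 29.9 for the remaining 7. With the length of the longest transcript in place of all exons it was 73.3 in tumor 3, beside 0.973 to 15.4. Nos1ap overlaps the annotated gene Gm7694 on the same strand, which held 323 counts over the 8 libraries against 245 for Nos1ap, so its counts depend on how reads in the overlap were assigned.

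Prkg1, the main kinase of the pathway, ordered the tumors much as Nos1 did, apart from tumor 3. It stood at 73.0 CPM in 2L, 64.8 in 1, 38.8 in 2R, 30.2 in 5, 12.3 in 3, 9.97 in 4b, 9.51 in 6 and 6.71 in 4a. The intervals of neighbours overlapped only between 3 and 4b and between 4b and 6, and scaling to protein-coding totals placed 1 above 2L. Per kilobase, Nos1 and Prkg1 were similar in 7 tumors, with a ratio of Nos1 to Prkg1 of 0.698 to 1.60 (median 0.878, n = 7), and the ratio was 64.8 in tumor 3. By the longest transcript it was 0.494 to 1.13 in the 7 tumors and 45.8 in tumor 3. Likeness of profiles was measured as the root-mean-square difference between gene-centred log2 CPM values. Over the 8 libraries this difference between Nos1 and Prkg1 was 2.01, close to the median of 2.002 over the 10859 protein-coding genes compared with Nos1. Without library 3, a choice made after the values were seen, it was 0.453 (n = 7), and Prkg1 ranked 13th of 10859 genes in likeness to Nos1, whose median was 1.14. From the side of Prkg1, Nos1 then ranked 7th. Genes of 1 library share its composition, so these ranks describe the 7 libraries and carry no test.

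The sum of 10 smooth muscle and pericyte markers was 1092 CPM in 2L, 1048 in 5, 729 in 4a, 720 in 4b, 595 in 2R, 469 in 1, 459 in 3 and 309 in 6, and all 10 were detected throughout. Tumor 1 was thus second in Prkg1 and sixth in this sum. Rgs5, a pericyte gene, stood at 617 CPM in 5 and 340 CPM in 1, and the adhesion gene Mcam at 191 and 46.4 CPM. Whether mural cells contribute to the Prkg1 levels was not tested. Cstf2t, which lies within Prkg1 on the opposite strand, held from 56 counts in library 3 to 1315 in 6. These counts are not scaled for depth, and how strand was handled is not given. The part of Cstf2t reads in the Prkg1 counts was not tested.

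Prkg2, the membrane-bound kinase, was highest where Prkg1 was low. It stood at 8.33 CPM in 6, 3.35 in 4a, 3.10 in 4b, 2.04 in 1, 1.92 in 2L, 1.25 in 2R, 0.737 in 5 and 0.533 in 3, where a single count was found. Only tumor 6 was separated from its neighbour by the intervals (7.23 to 9.55 CPM against 2.66 to 4.17 CPM in 4a). Inside the libraries, Prkg1 exceeded Prkg2 per kilobase by 11.4-fold to 20.3-fold in 1, 2L, 2R, 3 and 5, and by 1.59-fold in 4b. It was level in 4a, at 0.989, and below Prkg2 in 6, at 0.564. By the longest transcript the ratio was 1.42 in 4a and 0.813 in 6. Prkg2 did not pass the low-count filter.

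**Figure D2:**
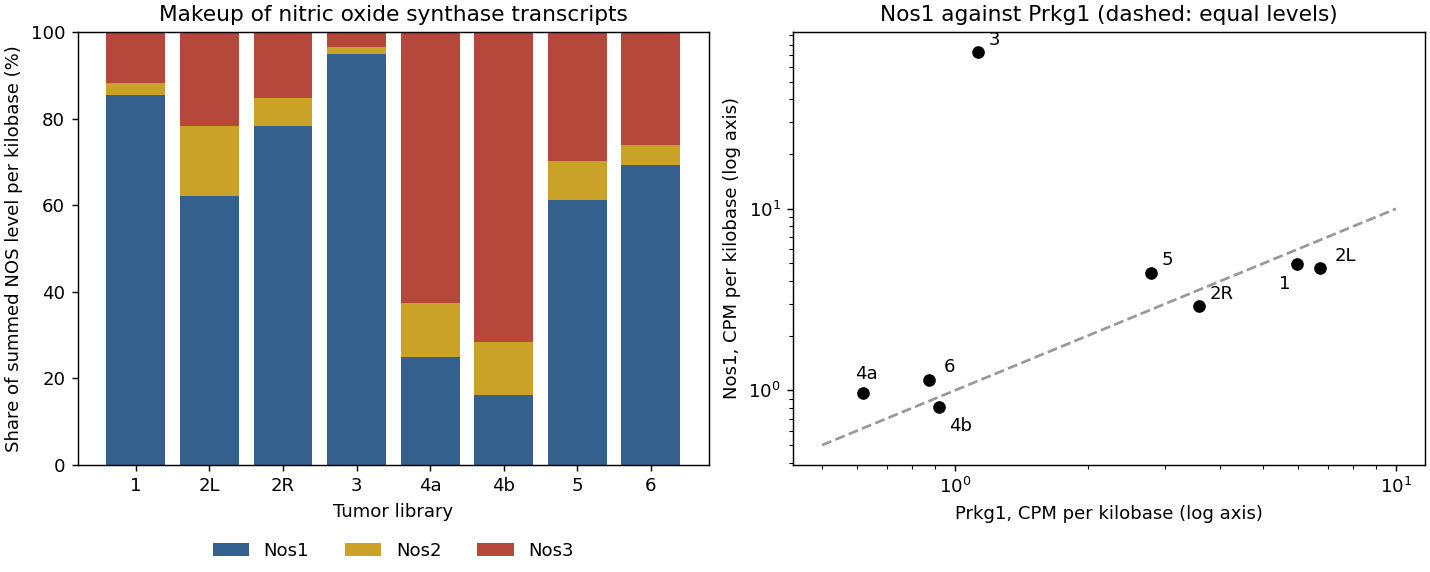
Left, the share of Nos1, Nos2 and Nos3 in their summed CPM per kilobase (%) in each library. Right, Nos1 against Prkg1 as CPM per kilobase (log axes) with 1 point per library, where 7 libraries lie near the line of equal levels and library 3 lies at a ratio of 64.8.

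With TMM scaling the Ddah genes varied least of the 8, but not with total counts and no factor, where the SD of log2 CPM was 0.90 for Ddah2 and 0.75 for Ddah1, against 0.64 for Nos1ap. Ddah2 stood at 61.5 CPM in 6, 40.4 in 2L, 36.9 in 1, 36.6 in 5, 34.2 in 4a, 31.9 in 2R, 29.2 in 4b and 23.4 in 3, with a mean of 36.8 ± 11.3 CPM (SD, n = 8). Tumor 6 was separated from its neighbour, and the other 6 neighbouring pairs overlapped. Ddah1, the enzyme that clears the methylarginine inhibitor, stood at 35.1 CPM in 5, 21.2 in 2R and between 11.6 and 14.7 CPM in the other 6, which overlapped in turn. Ddah2 exceeded Ddah1 per kilobase in all 8 libraries, by 2.61-fold in 5 to 11.3-fold in 6. With TMM scaling the SD of log2 CPM was 0.40 for Ddah2 and 0.54 for Ddah1, against a median of 0.51 over all genes kept.

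By median level per kilobase, Ddah2 (22.2 CPM per kilobase) came first, followed by Nos1 (3.69), Ddah1 (3.38), Prkg1 (1.96), Nos3 (1.90), Nos2 (0.548), Prkg2 (0.369) and Nos1ap (0.354). Ranges over libraries overlapped between every pair of neighbours in this order. Ddah2 exceeded Nos1 in 7 of 8 libraries, with tumor 3 as the exception, and Nos3 exceeded Nos2 in 8 of 8. Nos1 exceeded Ddah1 in only 3 of 8 although its median was higher, and Prkg2 exceeded Nos1ap in 4 of 8. By the longest transcript, Nos1ap (0.755 CPM per kilobase) stood above Nos2 (0.576) and Prkg2 (0.399), and the first 5 genes kept their order. By their mean, Ddah2 lay at the 89.3rd percentile of genes kept and Nos1 at the 75.5th, but without library 3 Nos1 lay at the 26.5th and Ddah2 at the 89.7th. Ddah1 lay at the 39.1st, Prkg1 at the 24.6th and Nos3 at the 13.05th percentile.

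**Figure D3:**
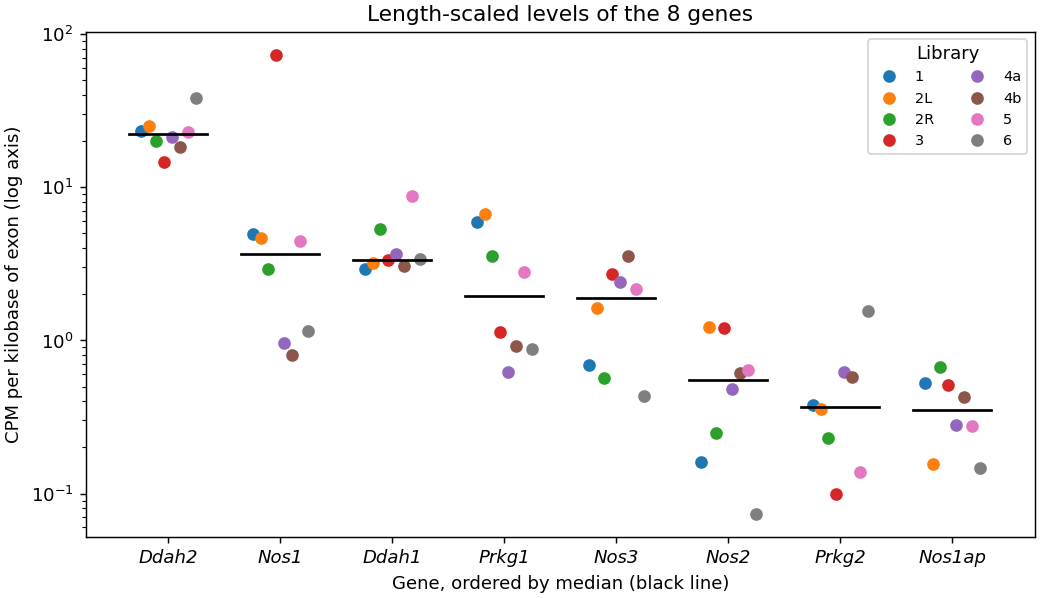
CPM per kilobase of exon (log axis) of the 8 genes, ordered by their median (black lines), with 1 coloured point per library. Ddah2 lies highest in every library but 3, where Nos1 reaches 73.1 CPM per kilobase against 14.7 for Ddah2.

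Against all genes, the range over tumors can be read as follows. The highest library exceeded the lowest at least 4-fold, in log2 CPM with a prior count of 2, for 33.6% of the 11505 genes kept. Of the 6 of the 8 genes that were kept, 4 did so: Nos1 (6.48 on the log2 scale), Prkg1 (3.42), Nos3 (2.96) and Nos1ap (2.06). Ddah1 (1.58) and Ddah2 (1.39) did not, beside a median of 1.54 over all genes kept. Nos2 and Prkg2, which were not kept, spanned 3.58 and 3.66. With total counts and no factor, Ddah1 (2.68) and Ddah2 (3.07) passed 4-fold and Nos1ap (1.51) did not. Nos1ap also missed it without library 2R (1.73) or without 6 (1.95). Nothing is read from these counts, since the genes were listed with these values known.

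Between libraries of 1 number there is 1 library on each side and no test. Library 2L differed from 2R at least 2-fold for 17.4% of the genes kept, and for 2 of the 6 kept genes here, Nos3 (log2 ratio of 2L to 2R of 1.48) and Nos1ap (-1.96). With total counts and no factor, 4 of the 6 passed, but the share of all genes was not computed for that scaling. Nothing is read from that count. With TMM the log2 ratio was 0.91 for Prkg1, 0.68 for Nos1, 0.34 for Ddah2 and -0.73 for Ddah1. For the genes not kept it was 2.18 for Nos2 and 0.57 for Prkg2. Library 4a differed from 4b at least 2-fold for 4.45% of the genes kept and for 0 of the 6, whose ratios lay between -0.58 and 0.26.

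The profiles most like each gene were found by the same root-mean-square difference over the 8 libraries, among 10859 protein-coding genes. For Nos1 they were B4galnt4, a glycosyltransferase gene (0.542), and Zfhx2, a zinc finger homeobox gene (0.557), both highest in tumor 3, at 59.1 and 93.7 CPM. For Nos3 they were the glycosyltransferase genes St6galnac2 (0.281) and Galnt15 (0.288), both highest in 4b. For Nos1ap they were Cep112, a centrosome gene, and Vegfa, the vascular growth factor gene, at 0.237 and 0.238. Prkg1 was closest to Trpm3, an ion channel gene (0.450), and Vill, a villin-like gene (0.534). Ddah1 was closest to Cgas, the DNA sensor gene (0.198), and Rpl37, a ribosomal protein gene (0.256). Ddah2 was closest to Ide, the insulin-degrading enzyme gene (0.120), and Ttbk2, a kinase gene (0.125). The median differences to all compared genes were 2.002 for Nos1, 1.16 for Nos3, 0.864 for Nos1ap, 1.34 for Prkg1, 0.698 for Ddah1 and 0.586 for Ddah2. The closest genes of Nos1 and Prkg1 depended on library 3. Without it, a choice made after the values were seen, Aff3 (0.172) and Miga1 (0.270) were closest to Nos1. Closest to Prkg1 were then Rhbdl3 (0.416) and Aff3 (0.421).

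The rest of the pathway was largely present. Of 58 other genes in 8 lists, 51 reached a mean of 1 CPM (87.9%) and 42 passed the low-count filter (72.4%), beside 62.9% and 50.6% of all 21798 protein-coding genes outside the mitochondrial genome. Of the 42, 23 spanned at least 4-fold over the tumors, beside the 33.6% of all genes kept.

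Receptors of nitric oxide were modest. The soluble guanylyl cyclase subunit genes Gucy1a1 and Gucy1b1 averaged 9.13 ± 6.33 and 9.18 ± 4.64 CPM (SD, n = 8) and were both highest in 2R, at 21.2 and 15.9 CPM. In tumor 3, where Nos1 peaked, they stood at 3.20 and 1.60 CPM, and the second of these rests on 3 counts. Of the 4 subunit genes 2 passed the filter, Gucy1a1 and Gucy1a2. Gucy1b1 did not, because of its 3 counts in library 3. Its lowest count elsewhere was 42, in library 1. Cyclic GMP can also come from membrane cyclases. Npr2, the receptor for C-type natriuretic peptide, stood at 34.97 ± 10.2 CPM and Nppc, which encodes that peptide, at 35.5 ± 41.1 CPM (SD, n = 8). Among the kept genes of this list Nppc spanned most, with 124 CPM in 1, 55.3 in 2R, 52.7 in 2L, 19.7 in 4b, 13.8 in 3, 10.1 in 4a, 6.95 in 5 and 1.63 in 6. Nppa, the atrial peptide gene, had 1 count in all libraries together.

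Phosphodiesterase genes included some well above the synthases, with medians of 17.9 CPM per kilobase for Pde10a and 9.39 for Pde3a, against 3.69 for Nos1. Pde10a, whose enzyme takes both cyclic nucleotides, stood at 245 ± 71.1 CPM and Pde3a, whose enzyme is inhibited by cyclic GMP, at 115 ± 51.1 CPM (SD, n = 8). Pde3a was lowest in tumor 3, at 18.1 CPM, against 71.9 to 165 CPM elsewhere. Pde5a, which removes cyclic GMP specifically, ran from 58.5 CPM in 4b and 51.6 in 4a to 11.7 in 3 and 6.14 in 6. Of the 11 genes listed, which include the noncatalytic subunit gene Pde6d, 8 passed the filter.

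Among targets of the kinase, Ppp1r12a, the myosin phosphatase subunit gene, varied little, at 129 ± 24.3 CPM (SD, n = 8). Rgs2, which encodes a brake on G-protein signaling, stood at 382 CPM in 2R, 191 in 1 and 12.8 in 3, with 93.6 to 149 CPM in the other 5. Of the 6 genes 5 passed the filter. The myosin phosphatase gene was thus steady while Rgs2 spanned 4.89 on the log2 scale.

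Supply of arginine and cofactor differed between tumors as well. Slc7a2, an arginine transporter gene, stood at 185 CPM in 1 and 21.8 CPM in 3. Arg1, the arginase gene, competes for arginine and ran from 134 CPM in 2R, 101 in 6 and 96.2 in 1 to 17.04 in 3 and 6.57 in 4b. Gch1, which starts tetrahydrobiopterin synthesis, stood at 10.3 CPM in 2L and at 0.977 to 3.48 CPM in the others, with 3.20 in 3. Nos2 was nearly level in 2L and 3, at 5.41 and 5.33 CPM, and which of them led depended on the scaling. Pts and Qdpr, which act later in tetrahydrobiopterin synthesis and in its recycling, averaged 27.6 ± 11.4 and 30.7 ± 6.68 CPM (SD, n = 8). In the list of arginine genes 5 of 6 passed the filter, and in that of cofactor genes 5 of 6.

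Among genes whose products bind the synthases, Hsp90ab1, a chaperone gene, stood at 531 ± 107 CPM (SD, n = 8), and 10 of 12 regulator genes passed the filter. Prmt1, which makes the methylarginine that Ddah1 clears, stood at 35.8 ± 9.88 CPM. Adh5, which clears S-nitrosoglutathione, stood at 74.2 ± 24.9 CPM. Cygb, which encodes the nitric oxide-consuming cytoglobin, stood at 54.2 CPM in 2L and 51.7 CPM in 5 and between 6.92 and 10.2 CPM in the other 6. Of these last 4 genes, with Agxt2, 3 passed the filter.

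**Figure D4:**
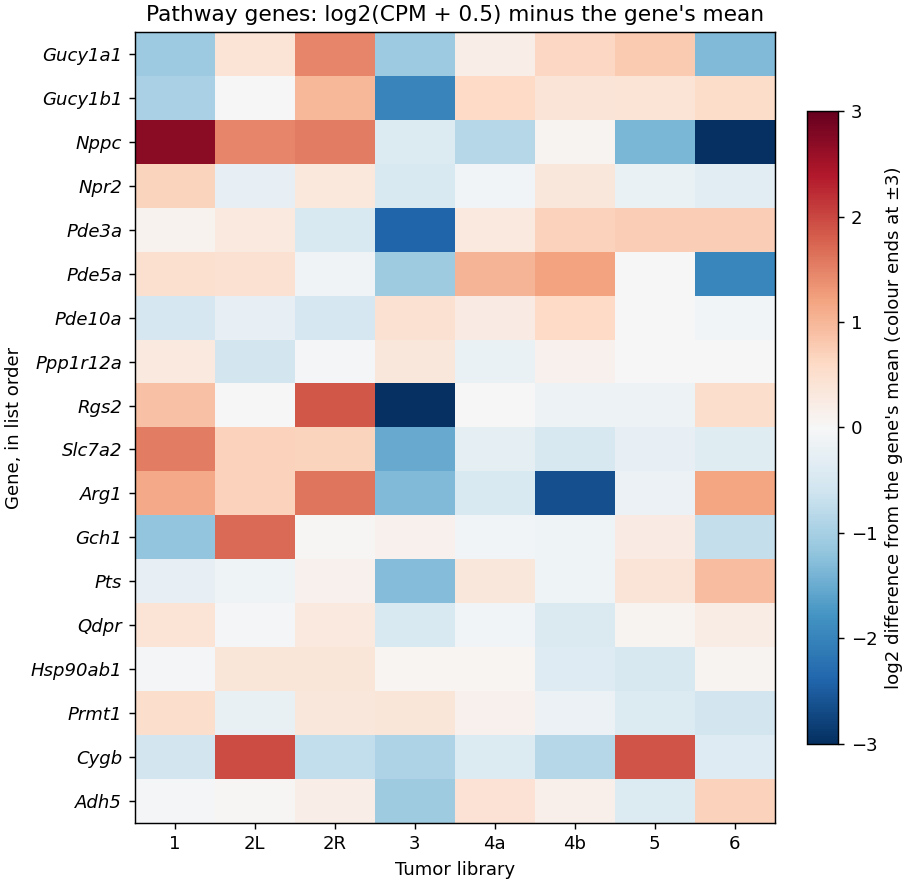
Colour shows log2(CPM + 0.5) minus the mean of each gene over the 8 libraries, for the pathway genes named in the text (rows) in each library (columns). Library 3 has the lowest Pde3a and Rgs2, at 18.1 and 12.8 CPM, and Cygb is highest in 2L and 5.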

How the data were processed

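The deposited values are counts that the authors left without normalization: 49671 Ensembl identifiers by 8 tumor libraries, each made from total RNA depleted of ribosomal RNA. The mm10 build and the tools STAR 2.7.5a, RSEM, featureCounts and cutadapt are listed, per the submitters' processing notes. The roles of the tools and the handling of strand are not given in the sources used here. GENCODE M21 named 49412 identifiers (99.5%) and gave exon lengths.

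Low counts were removed with filterByExpr for 1 group in edgeR 4.0.16 (R 4.3.3), which asked for 10 counts in a library of median size, 0.920 CPM before scaling, in every library and kept 11505 genes. CPM values are counts per 1000000 of kept counts times the TMM factor, and log2 CPM used a prior count of 2. No 2 libraries agreed within sampling noise (the smallest chi-square per gene was 108).

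The genes and lists were chosen with earlier results of these data known. Named beside them were, from each of 8 pathway lists, the 2 genes of highest mean CPM and the kept gene of largest SD, from each marker list the 2 of highest mean, and for each gene with at least 10 counts in at least 6 libraries the 2 most similar profiles. The values of 1 gene so chosen are not reported here. Marker lists covered endothelium, smooth muscle and pericytes, macrophages, skeletal muscle, fibroblasts and neurons. The fibroblast sum, of 6 genes, ran from 1329 CPM in 3 to 19866 CPM in 4b, with Col1a1 and Col1a2 at 460 and 401 CPM in 3 and at 7314 and 7318 CPM in 4b. The scaling, spread and likeness steps were checked on simulated data. Alternatives were DESeq2 1.42.0 size factors, upper-quartile factors, totals without a factor, protein-coding totals, no filter, a filter at a mean of 1 CPM, a prior count of 0.5, length of the longest transcript, and leaving out each library.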

Additional observations from a re-analysis of the deposited data

Results flagged for a closer look

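Among 27 genes, the 8 genes and those chosen from the pathway lists, 3 had 1 library whose log2 CPM lay far from the other 7 relative to the whole range (Dixon's ratio for 8 samples), and chance flags about 1 group in 20. That rate does not hold for genes picked by their level or spread, as these were, so nothing is read from the number of flags. All 3 concern library 3. Nos1 was high there, at 815 CPM. Pde3a was low there, at 18.1 CPM, and so was Rgs2, at 12.8 CPM. Library 3 also has the lowest total, the lowest share of protein-coding counts and the lowest TMM factor, whose part in these values was not tested.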

How the results depend on the processing

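The number of genes at a mean of 10 CPM (4 of 8) and of kept genes spanning at least 4-fold (4 of 6) stayed within 1.5 times under every alternative run, but the genes spanning 4-fold did not stay the same. With total counts and no factor they were 5, with Ddah1 and Ddah2 added and Nos1ap lost. The number spanning 4-fold was 6 of 8 without a filter and 3 to 4 when 1 library was left out. The number of pathway genes kept was 42, and 42 to 46 when 1 library was left out. Genes past 2-fold between 2L and 2R numbered 4 with total counts and no factor, against 2 with TMM; that scaling shifts the median gene by 0.37 in 2L and by -0.29 in 2R (log2). It shifts library 3 by -1.34. The share of all genes past each fold is given only with TMM, the filter and all 8 libraries. Counts under the alternatives therefore have no matching share beside them. The mean CPM of Nos1 ran from 36.0 to 147 when 1 library was left out and the TMM factors were computed anew, the lowest without library 3. Which library came first changed for close leaders. For Nos2 the log2 difference of 2L minus 3 (0.021) became -0.020 with DESeq2 size factors, -0.23 with protein-coding totals and -0.072 with upper-quartile factors, and with total counts it was 1.68. For Nos3, 4b minus 3 was 0.40, and 1.96 with total counts. For Nos1ap, 2R minus 1 became -0.052 with total counts, and for Prkg1, 2L minus 1 became -0.15 with protein-coding totals; the cause was not tested. Library 3 led Nos1 under all 4 other scalings. The Nos1 to Prkg1 difference was 2.01 over 8 libraries and 0.453 without library 3. The level of Nos1ap per kilobase was 0.374, and 0.799 by its longest transcript, which moved it above Nos2 and Prkg2 in the order of medians. No paired analysis was possible because there is 1 group. Depth limits library 3 most: 3 counts there equal 1.60 CPM, against at most 0.467 CPM elsewhere.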
